A study of Mus musculus with 15 samples.

Results

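The transcripts described here are those of the 10 circadian clock genes *Per1*, *Per2*, *Per3*, *Cry1*, *Cry2*, *Arntl*, *Clock*, *Nr1d1*, *Nr1d2*, and *Dbp*, measured in the mouse uterus after estradiol (E2) or estriol (E3). They were found by their symbols among the noncontrol probes of one-color Agilent whole mouse genome arrays, and they are 10 of 27962 symbols on the array. The 10 genes had 18 probes, and every one of these probes was well above background on all 15 arrays, so that none was lost to the filter on dim probes. A gene with several probes is described by the brightest one, and its other probes are given further on.

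The uterine RNA on the 15 arrays came from ovariectomized mice aged at least 10 weeks that had rested for 10 to 14 days after surgery. The mice received 1 intraperitoneal injection of saline, of 250 ng E2, or of 250 ng E3, each in 100 μL. There were 3 arrays in each of 5 groups, which were saline at 24 hr, E2 at 2 hr, E3 at 2 hr, E2 at 24 hr, and E3 at 24 hr. The mice of the E2 group at 2 hr were labeled C57bl6/Jx129 and wild type for Esr1, whereas the remaining 12 were labeled C57bl6/J. The arrays of that group also stood on slides and a scanner of their own, so that strain, scanner, and slide cannot be told apart from 2 hr of E2. Saline, E2 at 24 hr, and E3 at 24 hr shared a scanner but no slide, so that slide and treatment cannot be told apart in the 24-hr comparisons either. With slide as a random block (estimated correlation -0.0125) the counts of clock genes called, and of those past an adjusted p of 0.05, were the same in every comparison. Since these groups share no slide, that fit cannot separate a slide difference from treatment, and the same counts say nothing about it. The single vehicle group was collected at 24 hr, and the labels give no hour of the day, so that treatment and hour of collection cannot be told apart in any comparison of a 2-hr group with saline. Whether groups collected the same number of hours after injection shared an hour of the day is not given either. The methods describe pooled tissue and the design text single uteri, so the p-values measure the spread between arrays, which may be partly technical.

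The circadian clock is a loop of transcription and translation that runs in most cells of the body, the uterus included. ARNTL (also called BMAL1) and CLOCK bind together to E-box sequences and turn on the period genes *Per1*, *Per2*, and *Per3*, the cryptochromes *Cry1* and *Cry2*, the nuclear receptors *Nr1d1* and *Nr1d2* (REV-ERBα and REV-ERBβ), and the output factor *Dbp*. PER and CRY proteins then repress ARNTL and CLOCK, the REV-ERB proteins repress *Arntl*, and DBP acts on D-box sequences.

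The promoter stretches of the members that hold one of these elements are shown because the comparisons below order the genes by these roles. The sequences are those of RefSeq, build GRCm38.p6, from 250 bases before to 50 bases after the start of the gene, and 9 of the 10 genes had an entry (13 starts in all). Capitals mark the E-box CACGTG, its variant CACGTT, and the D-box TTANGTAA, each searched on both strands.
Per1, chr11:69098699-69098998, plus strand: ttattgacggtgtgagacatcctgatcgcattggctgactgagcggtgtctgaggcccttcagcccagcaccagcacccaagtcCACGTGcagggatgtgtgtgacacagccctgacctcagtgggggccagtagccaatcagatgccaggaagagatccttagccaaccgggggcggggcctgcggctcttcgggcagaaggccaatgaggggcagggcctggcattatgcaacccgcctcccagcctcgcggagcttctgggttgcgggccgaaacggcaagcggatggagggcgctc
Cry1, chr10:85185005-85185304, minus strand: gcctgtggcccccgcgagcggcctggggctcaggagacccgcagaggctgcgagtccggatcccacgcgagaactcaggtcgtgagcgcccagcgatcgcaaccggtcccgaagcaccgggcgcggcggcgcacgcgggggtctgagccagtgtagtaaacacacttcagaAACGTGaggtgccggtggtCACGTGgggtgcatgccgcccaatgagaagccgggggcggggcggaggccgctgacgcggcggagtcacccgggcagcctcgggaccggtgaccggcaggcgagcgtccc
Cry2, chr2:92434020-92434319, minus strand: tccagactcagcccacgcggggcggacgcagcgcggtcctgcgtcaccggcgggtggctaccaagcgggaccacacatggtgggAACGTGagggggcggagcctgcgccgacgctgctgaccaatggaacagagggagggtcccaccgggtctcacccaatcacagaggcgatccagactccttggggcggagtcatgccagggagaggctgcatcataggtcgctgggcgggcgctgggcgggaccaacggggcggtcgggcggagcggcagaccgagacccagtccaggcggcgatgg
Nr1d1, chr11:98775328-98775627, minus strand: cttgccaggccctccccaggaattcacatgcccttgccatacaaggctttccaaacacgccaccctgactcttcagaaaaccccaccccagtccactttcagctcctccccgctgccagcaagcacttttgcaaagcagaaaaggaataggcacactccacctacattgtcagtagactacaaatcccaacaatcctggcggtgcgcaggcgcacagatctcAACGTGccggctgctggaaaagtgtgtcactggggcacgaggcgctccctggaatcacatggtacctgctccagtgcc
Per3, chr4:151044616-151044915, minus strand: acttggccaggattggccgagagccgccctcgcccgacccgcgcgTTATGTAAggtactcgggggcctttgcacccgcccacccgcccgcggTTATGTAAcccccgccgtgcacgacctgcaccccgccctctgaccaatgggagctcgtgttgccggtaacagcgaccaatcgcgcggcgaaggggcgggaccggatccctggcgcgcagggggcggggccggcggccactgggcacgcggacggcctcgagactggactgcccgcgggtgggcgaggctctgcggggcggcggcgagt
CACGTG lay in the stretch of *Per1* from base -166 and in that of *Cry1* from base -60, counted from the gene start, and 7.15% of all 32851 promoters of this length held it. CACGTT lay in the stretches of *Cry1*, *Cry2*, and *Nr1d1* (4.68% of all promoters). The D-box was found at 2 places in *Per3*, from bases -205 and -158 (2.32% of all promoters). No match to these 3 motifs lay in the stretches of *Arntl*, *Clock*, *Nr1d2*, or *Dbp*, whereas the ROR element TAGGTCA (2.61% of all promoters) lay in 1 of the 2 *Arntl* stretches, from base 31. Neither TGGGTCA (3.98%) nor the palindromic estrogen response element (0.07%) was found in any of the 13 stretches. A match is a description of the letters and not a site of binding, and no match says nothing about other parts of the gene.

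The value used throughout is a level on the log2 scale, the log2 of the processed signal minus the log2 of the 75th percentile of the array, so that a level of 0 lies at that percentile. Across the arrays this percentile ran from 2989 to 4412 intensity units, and between 77.8% and 81.8% of probes exceeded background clearly. All 12 uterus markers on the list, such as *Esr1*, *Pgr*, and *Hoxa10*, were well above background on every array. Transcripts of other tissues were also present. The summed level of 10 liver markers was 5.83 to 21.9 times the 75th percentile on the saline arrays, highest in replicate 1, against 1.41 to 3.60 in E3 at 2 hr, 0.271 to 0.382 in E2 at 24 hr, 0.323 to 0.556 in E3 at 24 hr, and 0.0382 to 0.0458 in E2 at 2 hr, where no more than 3 of the 10 were well above background. Exocrine pancreas markers summed to 381 in replicate 2 of E3 at 2 hr and to 148 in replicate 2 of E2 at 24 hr, against 0.165 to 5.68 on the other arrays. Fat markers summed to 23.03 to 104 with saline, 16.5 to 23.1 in E2 at 24 hr, and 17.0 to 77.8 in E3 at 24 hr. Of 6 skeletal muscle markers, 5 were tested and 2 were called higher after 24 hr of E2, and their sum was 3.43 to 3.77 with saline, 8.12 to 10.99 in E2 at 24 hr, 5.36 to 8.20 in E3 at 24 hr, 2.25 to 2.81 in E2 at 2 hr, and 3.70 to 4.20 in E3 at 2 hr. The sum of 6 lymph node markers was highest on single arrays, at 24.0 in replicate 3 of E3 at 2 hr, 15.8 in saline replicate 2, and 15.7 in replicate 3 of E3 at 24 hr, against 1.01 to 9.20 on the others. Blood cell markers summed to 17.1 to 64.4, with none of the 4 tested called in any comparison. The part of these tissues in the levels below was not tested.

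**Figure D1:**
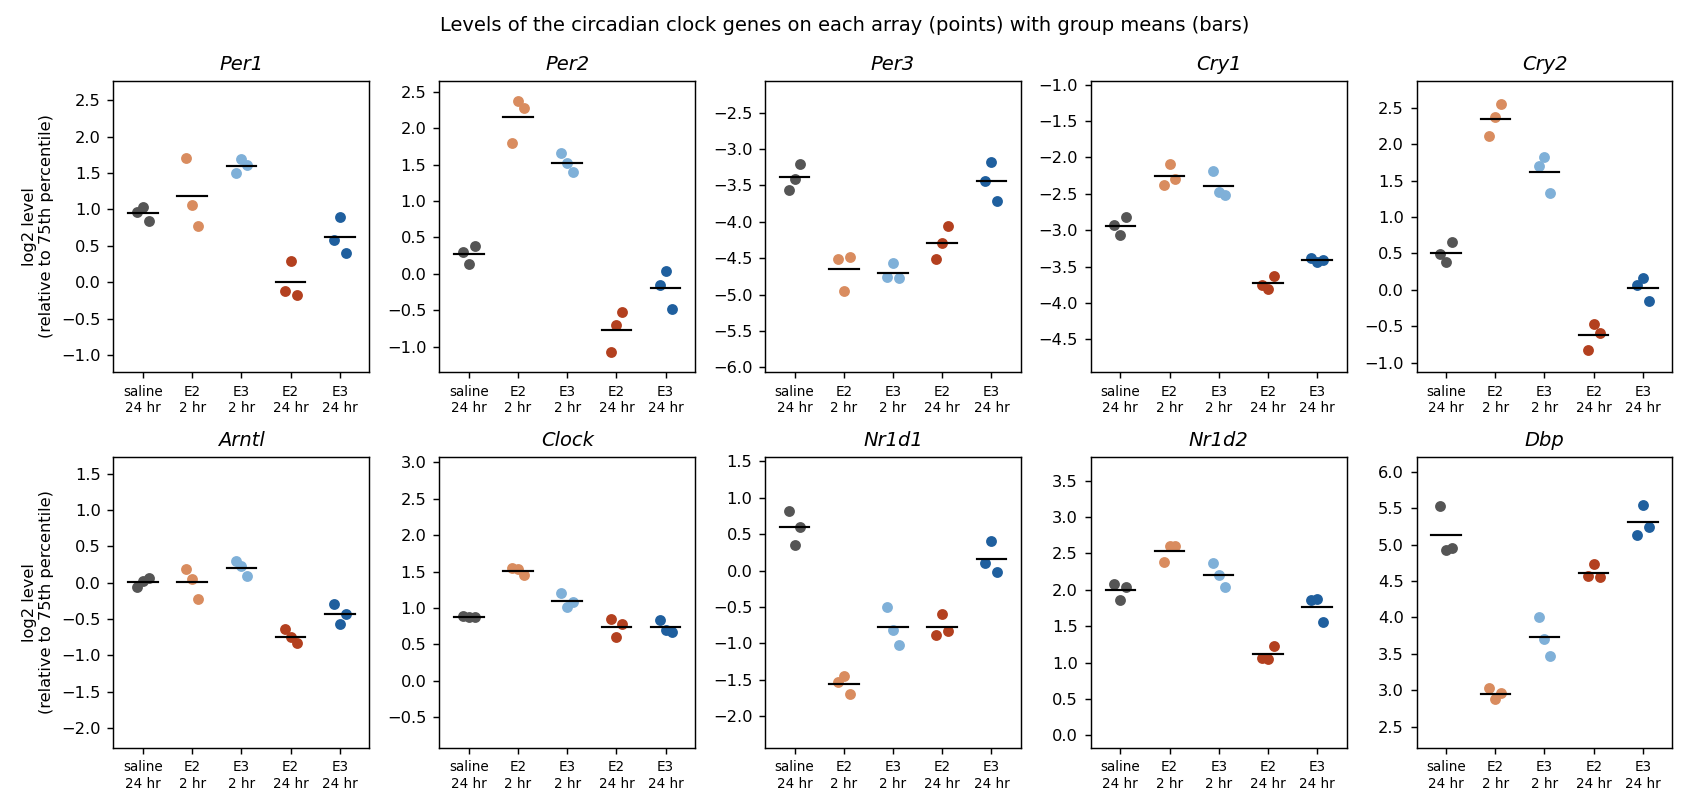
Log2 level relative to the 75th percentile of the array (vertical axes, each 4 units tall but centered per gene) for the 10 clock genes in the 5 groups; points are arrays (n = 3 per group) and bars are group means. The 3 E2 arrays at 24 hr lie below all 3 saline arrays in each panel, and in both 2-hr groups *Per2* and *Cry2* lie above saline and *Dbp*, *Nr1d1*, and *Per3* below it.

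The comparison with saline, also collected 24 hr after injection, asked which clock genes differed a day after treatment. At 24 hr of E2, every one of the 10 genes was lower than with saline on all 3 arrays, and the groups did not overlap for any of them, as for 68.8% of all probes, 38.4% as lower and 30.4% as higher. At an adjusted p below 0.05, 9 fell (limma, Benjamini-Hochberg over 34776 probes), by 1.44- to 2.57-fold, and *Clock* was the exception on its brightest probe. The median log2 change of the 10 genes was -0.89, against -0.06 over all probes tested. Of all probes, 61.4% passed the same threshold, 34.1% as lower. Called at p below 0.001 and at least 2-fold were 3 genes (*Nr1d1*, *Cry2*, and *Per2*), all lower, against 18.1% of all probes called. Fewer cells of a type and less RNA per cell cannot be told apart in whole uteri. Markers of cell types in the uterus differed as well. The summed level of 7 uterine epithelium markers, of which 3 were called higher and 1 (*Wnt7a*) lower after 24 hr of E2, was 69.0 to 92.3 with saline, 158 to 167 in E2 at 24 hr, and 112 to 118 in E3 at 24 hr, and that of 7 smooth muscle markers was 261 to 300 with saline against 358 to 387 and 365 to 452. The part of these cell types in the members' values was not tested.

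Among the repressors, *Nr1d1*, whose protein represses *Arntl*, had levels of 0.82, 0.36, and 0.60 with saline and of -0.89, -0.60, and -0.82 after 24 hr of E2. It fell by 1.36 ± 0.16 (SE) on the log2 scale, or 2.57-fold, with an adjusted p of 1.71e-05. *Cry2*, a partner of the PER proteins in repression, stood at 0.50, 0.38, and 0.65 with saline and at -0.82, -0.46, and -0.59 after E2, a fall of 2.20-fold (adjusted p = 5.45e-05). *Per2* went from 0.30, 0.14, and 0.39 to -1.08, -0.70, and -0.52, a fall of 2.06-fold (adjusted p = 0.000387). The *Per2* change lay near the 2-fold limit, and its call was lost without saline replicate 3 (log2 change -0.99) and without replicate 1 of E2 at 24 hr (-0.89), and also with normexp correction (-0.99, adjusted p = 0.00135).

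The remaining negative arm moved the same way within 2-fold. *Per1*, the period gene that also responds quickly to many stimuli, fell from 0.96, 1.03, and 0.84 to -0.12, 0.29, and -0.18 (1.93-fold, adjusted p = 0.00197), and it was called when replicate 2 of E2 at 24 hr was left out (log2 change -1.09). *Nr1d2* fell from 2.08, 1.87, and 2.04 to 1.06, 1.05, and 1.23 (1.84-fold, adjusted p = 4.29e-05). *Per3* and *Cry1* fell by 1.86-fold and 1.73-fold (adjusted p = 0.000653 and 5.04e-05). The *Per3* level went from -3.56, -3.41, and -3.20 to -4.52, -4.29, and -4.06, and under normexp background correction the adjusted p of these 2 genes was 0.0901 and 0.123.

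Of the activators, *Arntl* stood at -0.06, 0.03, and 0.07 with saline and at -0.64, -0.75, and -0.83 after E2, a fall of 1.68-fold (adjusted p = 0.000113). *Arntl* and its repressors *Nr1d1* and *Nr1d2* were lower on the same arrays. *Clock* on its brightest probe differed by -0.13 on the log2 scale (95% interval -0.32 to 0.05, adjusted p = 0.182). The output gene *Dbp*, which encodes a D-box binding factor of the PAR bZIP family, stood at 5.53, 4.93, and 4.96 with saline and at 4.57, 4.73, and 4.55 after E2, a fall of 1.44-fold (adjusted p = 0.0211). Among the saline arrays, replicate 1 held both the highest *Dbp* level and the most liver transcripts. Without it the *Dbp* difference was -0.33 with an adjusted p of 0.0951, and saline replicates 2 and 3 still held liver sums of 7.41 and 5.83. The highest *Dbp* level of all 15 arrays, 5.54, was in replicate 2 of E3 at 24 hr, where the liver sum was 0.323. The part of liver transcripts was not tested. The *Dbp* result was also lost with normexp correction (adjusted p = 0.0852) and without replicate 1 or 3 of E2 at 24 hr (0.0553 and 0.0604).

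**Figure D2:**
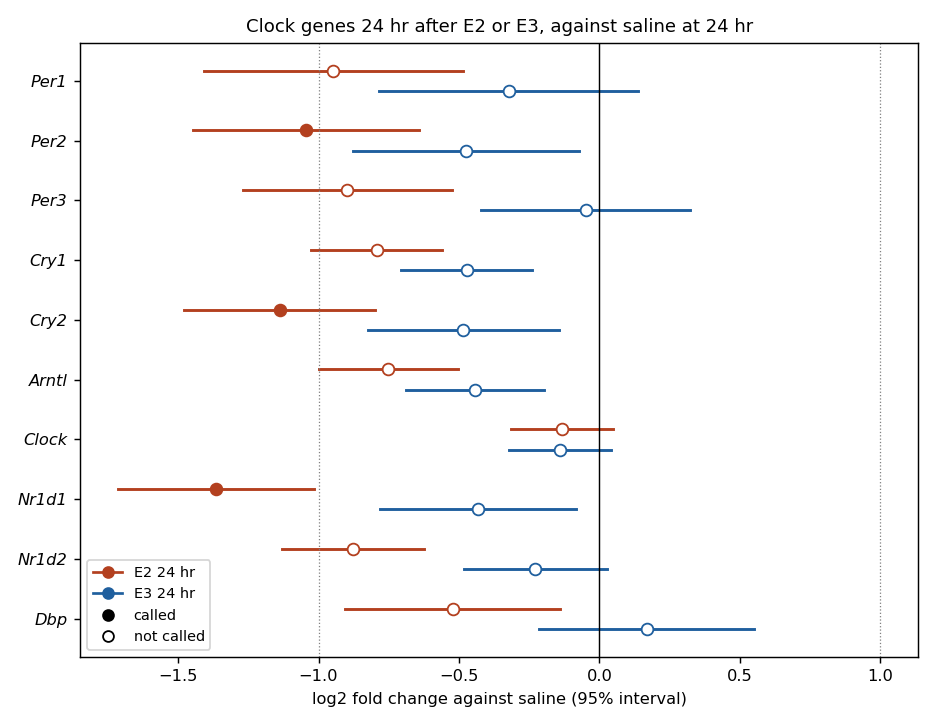
Log2 fold change against saline at 24 hr (horizontal axis) with its 95% interval for E2 and E3 at 24 hr (3 arrays per group); filled points were called at p below 0.001 and 2-fold, and dotted lines mark 2-fold. The 3 filled points are *Per2*, *Cry2*, and *Nr1d1* after E2, and no gene was called after E3.

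At 24 hr of E3, no clock gene was called by limma, against 3.81% of all probes, and 5 of the 10 had an unadjusted p below 0.05, where 44.4% of all probes did. *Cry1*, *Cry2*, and *Arntl* fell at an adjusted p below 0.05, where 34.1% of all probes passed and 18.5% passed as lower. The members' median log2 change was -0.38, against -0.01 over all probes. *Arntl* levels were -0.29, -0.56, and -0.44, a fall of 1.36-fold from saline (adjusted p = 0.0105). *Cry2* stood at 0.07, 0.16, and -0.15 (1.40-fold lower, adjusted p = 0.0311) and *Cry1* at -3.38, -3.44, and -3.41 (1.39-fold lower, adjusted p = 0.00563). The 3 *Cry1* arrays lay below all saline arrays, but with normexp background correction, which moved the median of all probes in this comparison to 0.32, the *Cry1* difference was 0.10. The number of genes past the adjusted p under E3 depended on the setting. It was 0 with normexp, 5 with the 75th percentile taken over probes above background on all arrays, and 2 to 5 when single arrays were left out. The share of all probes under these settings was not counted. *Cry2* missed the threshold without saline replicate 1 or 3 (adjusted p = 0.0648 and 0.113) and without replicate 1 or 3 of E3 at 24 hr (adjusted p = 0.0583 and 0.109).

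*Per2* (-0.15, 0.04, and -0.49) and *Nr1d1* (0.10, 0.40, and -0.02) after E3 did not pass (adjusted p = 0.0655 and 0.0552), with 95% intervals of -0.88 to -0.07 and of -0.78 to -0.08 on the log2 scale. *Per1*, *Per3*, *Clock*, and *Nr1d2* had intervals that held 0. *Dbp* was the single member with a mean above saline, at 5.13, 5.54, and 5.25, and its difference of 0.17 (95% interval -0.21 to 0.55) did not pass either.

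E2 and E3 are related steroids, E3 carrying 1 hydroxyl group more. They were given here at the same dose and collected the same number of hours after injection, with the hour of the day not given. At 24 hr the levels after E3 were above those after E2 for 9 of the 10 genes, and for these 9 the 3 E3 arrays lay above the 3 E2 arrays. The groups did not overlap for 51.2% of all probes, 29.3% with E3 higher and 21.9% with E3 lower. None of the differences reached the call, against 4.85% of all probes, but the same 9 genes had an adjusted p below 0.05 (36.5% of all probes, 20.8% as higher). The median difference was 0.64, against 0.06 over all probes. The largest was that of *Nr1d1*, which was 1.91-fold higher after E3 (log2 difference 0.93 ± 0.16, adjusted p = 0.000882). *Per3* was 1.80-fold higher (adjusted p = 0.00234), with levels of -3.43, -3.18, and -3.71 after E3. *Dbp* was 1.61-fold higher (adjusted p = 0.00892) and *Nr1d2* 1.57-fold higher (adjusted p = 0.00114).

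*Cry2*, *Per1*, and *Per2* were higher after E3 by 1.57-, 1.54-, and 1.48-fold, and *Cry1* and *Arntl* by 1.25- and 1.24-fold, the last with an adjusted p of 0.0497, which ranged from 0.0262 to 0.174 when single arrays were left out (0.0586 without saline replicate 1 and 0.174 without replicate 1 of E3 at 24 hr). For *Clock* the difference was -0.01, with a 95% interval of -0.19 to 0.17. The count of 9 rested in part on single arrays and on the scaling, since 5 genes passed without replicate 1 of E2 at 24 hr, 5 without replicate 1 of E3 at 24 hr, 5 with no scaling between arrays, 4 with normexp correction, and 6 without both pancreas-rich arrays. How many of all probes passed under these settings was not counted. *Nr1d1* crossed the 2-fold limit without replicate 2 of E2 at 24 hr, the array with pancreas transcripts (log2 difference 1.02), and without replicate 3 of E3 at 24 hr (1.02). *Nr1d1*, *Nr1d2*, *Per3*, and *Cry2* passed the adjusted p both with normexp correction and in the original scaling, but normexp moved the median of all probes in this comparison to 0.44, the same direction as these differences.

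At 2 hr the pattern was another. Against saline collected at 24 hr, 5 of the 10 genes were called for E2 (21.2% of all probes) and 5 for E3 (13.8% of all probes). In each comparison these were *Per2* and *Cry2* as higher and *Dbp*, *Nr1d1*, and *Per3* as lower. The comparisons share the saline arrays, and neither can separate the treatment from the hour of collection. At an adjusted p below 0.05, 8 genes passed for E2 (61.9% of all probes) and 8 for E3 (49.6% of all probes), in each case 5 higher and 3 lower. The members' medians were 0.39 and 0.22 on the log2 scale, against -0.08 and -0.11 over all probes.

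*Per2* rose from 0.30, 0.14, and 0.39 with saline to 1.80, 2.38, and 2.28 after E2, or 3.67-fold (adjusted p = 3.09e-06), and to 1.66, 1.53, and 1.40 after E3, or 2.38-fold (adjusted p = 0.000129). *Cry2* rose to 2.11, 2.38, and 2.56 after E2 (3.58-fold, adjusted p = 8.96e-07) and to 1.71, 1.83, and 1.34 after E3 (2.16-fold, adjusted p = 8.6e-05). On the second *Cry2* probe the rises were smaller, 2.03-fold after E2 (adjusted p = 0.000347) and 1.42-fold after E3 (adjusted p = 0.035), the latter not called, and on the second *Per2* probe the rise after E3 was 0.68 on the log2 scale (adjusted p = 0.0262) and not called.

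*Dbp* fell to 3.03, 2.87, and 2.96 after E2, a change of 4.55-fold and the largest of any member (adjusted p = 5.8e-07), and to 4.01, 3.71, and 3.46 after E3 (2.66-fold, adjusted p = 3.34e-05). *Nr1d1* fell to -1.53, -1.45, and -1.69 after E2 (4.44-fold, adjusted p = 3.26e-07) and to -0.50, -0.81, and -1.02 after E3 (2.58-fold, adjusted p = 2.07e-05). *Per3* fell to -4.51, -4.95, and -4.48 after E2 and to -4.75, -4.57, and -4.78 after E3, by 2.39-fold and 2.48-fold (adjusted p = 4.26e-05 and 4.93e-05). With normexp correction the *Per3* changes were -1.01 and -1.03 and were not called. Liver transcripts were higher on the saline arrays than in either 2-hr group, and without saline replicate 1 the *Dbp* changes were -1.99 and -1.22 and the *Nr1d1* changes -2.04 and -1.26 on the log2 scale. The part of liver transcripts in these changes was not tested.

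The other members moved less. *Cry1* rose by 1.61-fold after E2 and by 1.46-fold after E3 (adjusted p = 0.000139 and 0.00112), but with normexp correction the adjusted p was 0.109 and 0.299. *Clock* rose by 1.56-fold after E2 on the described probe (adjusted p = 3.18e-05), and on its other 3 probes the log2 differences were 0.69, 0.44, and 0.17, the last, on A_52_P161365, with an adjusted p of 0.211 and overlapping groups. After E3 the *Clock* difference depended on the setting and the probe. It was 0.22 on the described probe (adjusted p = 0.0424, but 0.106 with normexp, 0.0755 with quantile normalization, and 0.0305 to 0.152 when single arrays were left out), and -0.39 on the probe A_52_P279391 (adjusted p = 0.00844). *Nr1d2*, unlike its paralog *Nr1d1*, rose after E2, by 1.45-fold (adjusted p = 0.00153). After E3 the *Nr1d2* difference was 0.21 on the log2 scale (95% interval -0.04 to 0.47). *Per1* rose after E3 to 1.501, 1.69, and 1.61 (1.57-fold, adjusted p = 0.0215, but 0.067 without saline replicate 3 and 0.0643 and 0.0504 without replicates 2 and 3 of its own group), whereas its E2 arrays spread over 1.71, 1.06, and 0.77 and overlapped with saline (adjusted p = 0.355). *Arntl* differed by -0.01 after E2 (95% interval -0.25 to 0.24) and by 0.19 after E3 (-0.05 to 0.44).

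Slide 4 held saline replicate 3 with all 3 E3 arrays at 2 hr, the only slide with arrays of more than 1 group. Within it, the E3 arrays differed from that saline array by 1.01 to 1.27 for *Per2*, by 0.68 to 1.18 for *Cry2*, by -1.57 to -1.36 for *Per3*, by -1.62 to -1.10 for *Nr1d1*, and by -1.49 to -0.95 for *Dbp*. With slide as a fixed block, which leaves this 1 saline array as the control, the log2 differences were 1.14 for *Per2* and 0.97 for *Cry2*. They were -1.50 for *Per3*, -1.38 for *Nr1d1*, and -1.23 for *Dbp*. With 1 control array, no call is read from that fit.

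**Figure D3:**
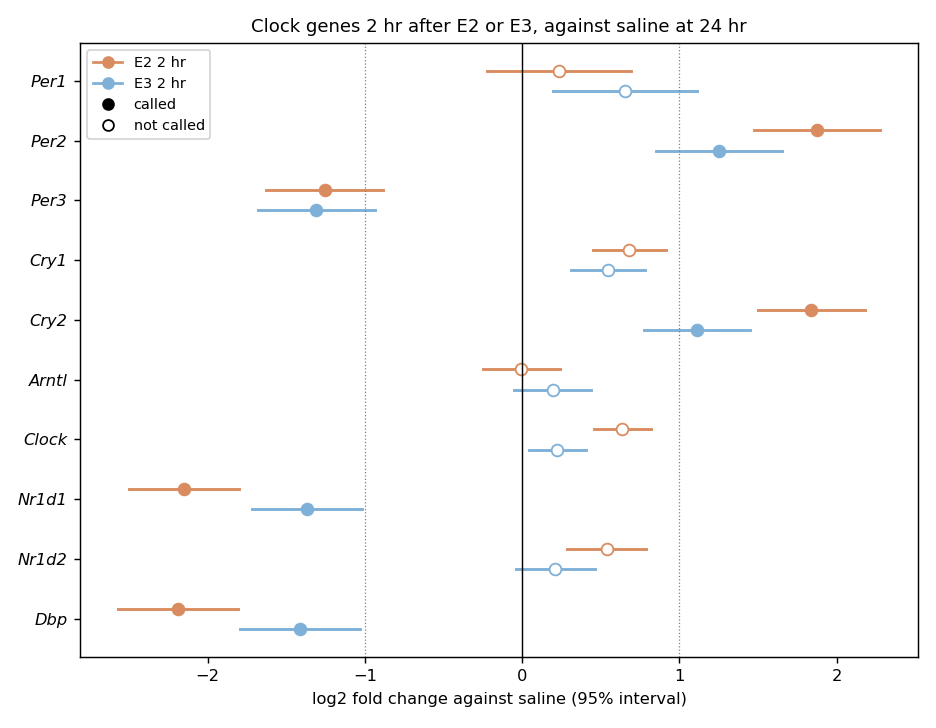
Log2 fold change of the 2-hr groups against saline collected at 24 hr (horizontal axis) with its 95% interval (3 arrays per group); filled points were called and dotted lines mark 2-fold. *Per2* and *Cry2* lie on the right and *Per3*, *Nr1d1*, and *Dbp* on the left for both compounds.

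Compared with each other at 2 hr, the 2 compounds differed by less than the call for each of the 10 genes, against 7.37% of all probes called, and 6 genes had an unadjusted p below 0.05 in limma, where 51.4% of all probes did. All 6 also had an adjusted p below 0.05 (43.3% of all probes), and 4 of them without both pancreas-rich arrays, where that of *Per2* was 0.056 and that of *Nr1d2* 0.104. *Nr1d2* also missed it with normexp correction (0.161), quantile normalization (0.0723), and no scaling between arrays (0.0658). With single arrays left out, the highest adjusted p was 0.143 for *Nr1d2* and 0.0665 for *Per2*. *Per2* was 1.54-fold, *Cry2* 1.65-fold, *Clock* 1.33-fold, and *Nr1d2* 1.25-fold lower after E3 than after E2. *Nr1d1* and *Dbp* were 1.72-fold and 1.71-fold higher after E3. In each of these 6 the E3 mean lay between the E2 mean and the saline mean. For *Per1*, *Per3*, *Cry1*, and *Arntl* the 95% intervals of the difference were -0.04 to 0.88, -0.42 to 0.32, -0.37 to 0.10, and -0.05 to 0.45 on the log2 scale. Strain, scanner, and slide differ with the compound in this comparison.

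The difference between E3 and E2 was itself compared between 24 hr and 2 hr. The signed difference, E3 minus E2, was higher at 24 hr for *Cry2* (by 1.38 ± 0.22, adjusted p = 0.000365) and *Per2* (by 1.19 ± 0.26, adjusted p = 0.00286), 2 genes called where 15.5% of all probes were. For both, E3 was below E2 at 2 hr and above it at 24 hr. On the second *Per2* probe the change was 0.29 (adjusted p = 0.486). At an adjusted p below 0.05, *Per3*, *Cry1*, *Clock*, and *Nr1d2* also had a higher signed difference at 24 hr, making 6 genes (46% of all probes). With normexp correction 3 genes passed, and *Per3* (adjusted p = 0.0702), *Cry1* (0.142), and *Clock* (0.104) did not. With no scaling between arrays 4 passed, and *Cry1* was also lost with quantile normalization (0.108). The shares of all probes under these settings were not counted. For *Clock* this was a difference of -0.41 at 2 hr and of -0.01 at 24 hr, the latter with an adjusted p of 0.954. *Nr1d1* and *Dbp* were higher after E3 at both times, and their differences changed by 0.15 (95% interval -0.34 to 0.64) and -0.09 (-0.63 to 0.45). The *Per2* call held when saline replicate 2, replicate 1 of E2 at 2 hr, replicate 3 of E2 at 24 hr, or replicate 3 of E3 at 24 hr was left out, and it was lost without any other single array (differences of 1.04 to 1.26, adjusted p up to 0.00841).

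**Figure D4:**
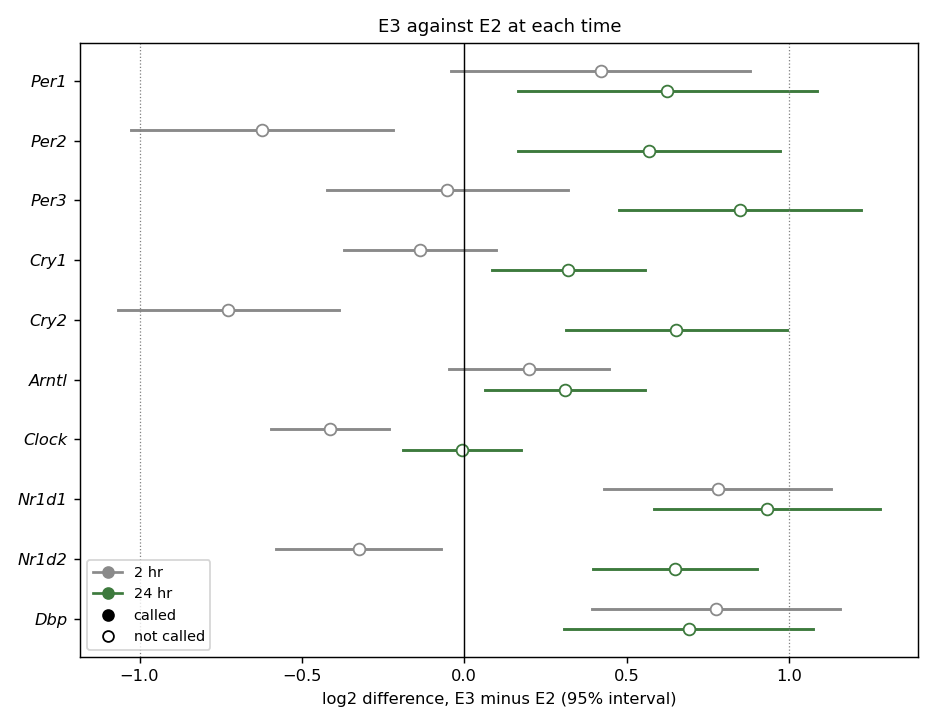
Log2 difference between E3 and E2 (horizontal axis, E3 minus E2) with its 95% interval at 2 hr and at 24 hr (3 arrays per group); no point was called, so all are open, and dotted lines mark 2-fold. *Per2*, *Cry2*, and *Nr1d2* lie on opposite sides of 0 at the 2 times, whereas *Nr1d1* and *Dbp* lie on the same side.

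Ordered by their means over the 5 groups, the members fell into a few orders. *Cry2* and *Per2* ran from E2 at 2 hr through E3 at 2 hr, saline, and E3 at 24 hr to E2 at 24 hr. All 4 steps of that order passed an adjusted p of 0.05 for *Cry2*, and for *Per2* the step from saline to E3 at 24 hr did not (adjusted p = 0.0655). *Cry1* and *Nr1d2* had the same order, in which the 2-hr groups did not differ for *Cry1* (adjusted p = 0.323), and saline did not differ from either E3 group for *Nr1d2* (adjusted p = 0.154 and 0.151). *Nr1d1* ran from saline through E3 and E2 at 24 hr to E3 and E2 at 2 hr, and E2 at 24 hr did not differ there from E3 at 2 hr (adjusted p = 0.978). *Dbp* had E3 at 24 hr at the top, not apart from saline (adjusted p = 0.495), and each lower step passed. *Per3* had saline and E3 at 24 hr together above the other 3 groups, among which no step passed. *Arntl* had E2 at 24 hr as its lowest group and did not differ among saline and the 2-hr groups, *Per1* passed at its lowest step alone, and *Clock* passed at its 2 upper steps. Of the 40 steps in all, 23 passed, and the share of all probes for such steps was not counted. Steps between a 2-hr group and saline cannot separate treatment from hour of collection. Those with E2 at 2 hr also differ in strain, scanner, and slide.

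Of the 10 genes, 5 had more than 1 probe, and these did not always move together. The coordinates are those of the array files, build mm7. For *Clock*, on the minus strand of chromosome 5, the brightest probe (A_52_P334670, from base 76144734) and the next (A_52_P334677, from base 76145130) lie toward the end of the gene. They differed by -0.13 and -0.20 after 24 hr of E2. The other *Clock* probes, A_52_P279391 (from base 76167935) and A_52_P161365 (from base 76186767), lie further upstream, and both were called lower, with log2 changes of -1.35 (adjusted p = 1.08e-06) and -1.22 (adjusted p = 2.77e-06). Unlike the other *Clock* probes, A_52_P279391 had no match in RefSeq. On A_52_P161365 the levels were -2.92, -3.07, and -2.84 with saline, -4.03, -4.43, and -4.04 after 24 hr of E2, and -3.70, -3.69, and -3.51 after 24 hr of E3. After E3 the upstream probes differed by -0.73 and -0.69 (adjusted p = 0.000468 and 0.00089). Whether *Clock* fell with E2 at 24 hr thus depended on the probe.

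The probe sequences that bear on this and on the 2 genes that follow, each with at least 1 reading frame free of stop codons, are shown as deposited, with no letters in capitals.
Clock A_52_P161365: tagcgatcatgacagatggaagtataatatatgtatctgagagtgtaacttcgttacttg
Per2 A_52_P536869: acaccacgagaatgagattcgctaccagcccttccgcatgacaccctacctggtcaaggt
Nr1d1 A_51_P223776: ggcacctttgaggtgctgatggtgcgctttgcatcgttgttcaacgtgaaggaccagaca
The *Nr1d1* probe, on the minus strand of chromosome 11 from base 98878753 to 98878251, covers 503 bases of the genome with its 60, so it joins parts of the transcript across an intron. The same holds for the second *Cry2* probe, A_51_P135542, on chromosome 2 from base 92266907 to 92264642 (2266 bases).

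Both *Cry2* probes were called lower after 24 hr of E2, with log2 changes of -1.14 and -1.26, and both *Cry1* probes fell, with changes of -0.79 and -0.74. The second *Per2* probe, A_52_P536869 on chromosome 1 from base 91347465, was dim, with levels of -4.89, -5.11, and -5.08 with saline, and differed by 0.12 (95% interval -0.38 to 0.62) after 24 hr of E2. At 2 hr of E2 it was called higher, by 1.04 (adjusted p = 0.00169), as was the brightest *Per2* probe, but at 2 hr of E3 it was not called. Of the other *Nr1d1* probes, A_52_P130952 fell by 0.90 (adjusted p = 0.000227) and the dim A_52_P130961 differed by -0.02 (95% interval -0.49 to 0.45). A_52_P130961 had no match in RefSeq. Over all 18 probes, 6 were called after 24 hr of E2 (18.1% of all probes on the array that were tested) and 0 after E3 (3.81%), and 6 of the 18 passed an adjusted p of 0.05 after E3, a share near the 34.1% of all probes. Between the compounds, the *Nr1d1* difference at 24 hr was 0.50 on A_52_P130952 (adjusted p = 0.0188) and -0.15 on A_52_P130961 (adjusted p = 0.618), and at 2 hr neither passed (0.20 and -0.13). The second *Per2* probe differed by -0.07 at 24 hr and by -0.36 at 2 hr (adjusted p = 0.837 and 0.221), and the second *Cry1* probe by 0.24 at 24 hr (adjusted p = 0.375). After 24 hr of E3 the second *Cry1* probe differed from saline by -0.49 (adjusted p = 0.0759).

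**Figure D5:**
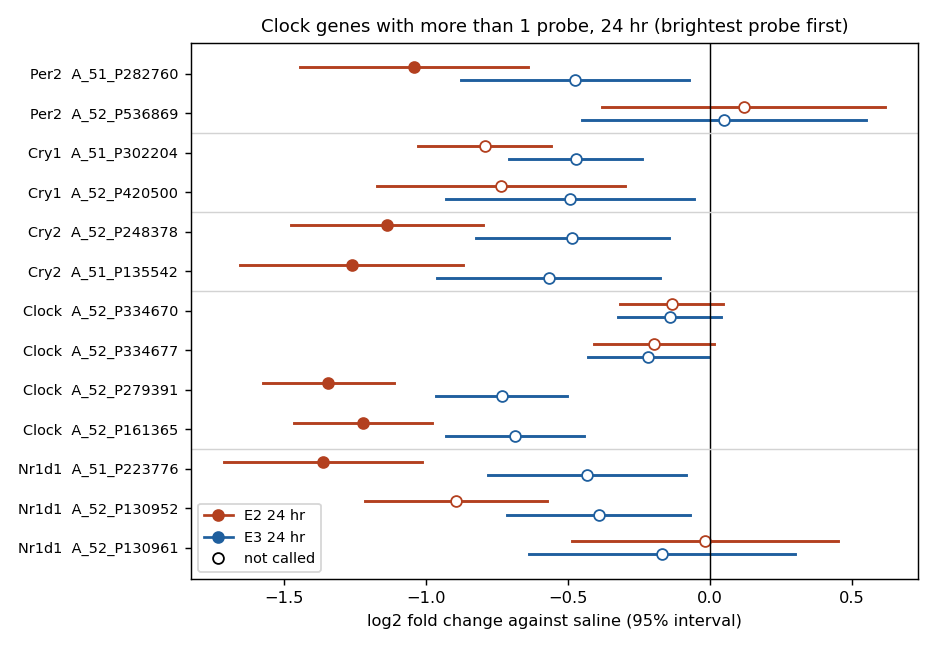
Log2 fold change against saline at 24 hr (horizontal axis) with its 95% interval for every probe of the 5 genes with more than 1 probe, brightest first within a gene (3 arrays per group; filled points were called). The probes of *Cry1* and *Cry2* lie together, and those of *Clock*, *Per2*, and *Nr1d1* lie apart after E2.

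The wider clock was followed in lists of further genes. Of 11 partners and loop factors, all tested, 3 were called lower and 0 higher after 24 hr of E2 (18.1% of all probes called), with a median log2 change of -0.79, and 0 were called after E3 (3.81% of all probes), with a median of -0.31 (all-probe medians, -0.06 and -0.01). *Bhlhe40* and *Sgk1* carry their older symbols *Bhlhb2* and *Sgk* on the array. *Hlf*, a relative of *Dbp*, fell by 2.06 (adjusted p = 4.59e-06) after 24 hr of E2, and by 0.83 (adjusted p = 0.00835) after 24 hr of E3. *Rora*, which encodes an activator at the elements that the REV-ERB proteins bind, fell by 1.38 (adjusted p = 1.65e-06) and is named after its values were seen. Of the 11, 3 were called higher and 0 lower after E3 than after E2 at 24 hr (4.85% of all probes called), *Hlf* (by 1.23) and *Rora* (by 1.06) among them.

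At 2 hr, 3 of the 11 were called higher and 3 lower for E2 (21.2% of all probes called), and 2 higher and 3 lower for E3 (13.8% of all probes). *Nfil3*, which encodes the repressor that opposes DBP at D-boxes, rose from 0.48, 0.80, and 0.78 to 3.96, 3.62, and 3.46 after E2 and to 3.07, 3.01, and 3.09 after E3, by 2.99 and 2.37 on the log2 scale. *Bhlhe40* (DEC1), a repressor at E-boxes, rose by 1.77 and 1.82. *Rorb* fell by 3.34 and 3.01. The *Arntl* paralog *Arntl2* fell by 1.495 and 2.00, and *Hlf* fell by 1.42 and 1.45 (the adjusted p of *Hlf*, the highest among *Rorb*, *Arntl2*, and *Hlf*, was 6.23e-05 and 8.39e-05).

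Among 9 kinases, ligases, and partners of the clock proteins, *Timeless* was called higher (by 1.25, adjusted p = 1.91e-06) and *Fbxl21*, an F-box protein that acts on CRY, lower (by 1.86, adjusted p = 1.28e-06) after 24 hr of E2, with 0 called after E3 and 0 at 2 hr of either compound, beside 18.1%, 3.81%, 21.2%, and 13.8% of all probes in these comparisons. TIMELESS also acts at the replication fork in dividing cells. Of 5 clock-controlled output genes, *Usp2* (by 1.21) and *Tsc22d3* (by 1.13) were called lower after 24 hr of E2, and *Tsc22d3* also at 2 hr of both compounds, by 1.27 and 1.32, against the same shares of all probes.

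Glucocorticoids act on the clock through *Per1*, so a list of 10 glucocorticoid-responsive genes was set beside the members, and 9 of them were tested, with *Per1* and *Tsc22d3* among them. At 2 hr, 3 were called higher and 1 lower for each compound (21.2% of all probes called for E2 and 13.8% for E3), namely *Errfi1* (by 3.81 after E2 and 3.26 after E3), *Dusp1* (2.40 and 2.36), and *Sgk1* (2.31 and 2.43) as higher and *Tsc22d3* as lower. The study described *Errfi1* in the uterus as a target of E2. *Fkbp5* differed by 0.15 and 0.42 at 2 hr. At 24 hr, *Mt2* (by 1.26) and *Tsc22d3* were called lower after E2 (18.1% of all probes called), and *Fkbp5* was called lower after E3 (by 1.40, 3.81% of all probes called). Their part in the members' values was not tested.

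The genes whose levels over the 15 arrays were most like those of *Dbp* were *Nudt13* (Pearson r = 0.99), *Zfp13* (0.98), *Pdk2* (0.98), *Ankrd35* (0.98), and *Rad52* (0.98). For *Arntl* they were 4930486L24Rik (r = 0.96), 1700001E04Rik (0.94), *Ercc6* (0.94), *Ing3* (0.93), and *Cdgap* (0.93). These are the highest values among 26445 probes well above background on all arrays, the points share the 5 groups and the slides, and they are given as a description.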

How the data were processed

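Mouse uterine RNA was hybridized to 15 one-color (Cy3) Agilent whole mouse genome arrays. Per the file headers, the deposited intensity values come from the authors' scans read by Agilent Feature Extraction 9.5.3.1, background being removed array by array and no normalization between arrays applied. The deposited value table held the same values (maximum relative difference 0). Control spots (leaving 43379 spots, 41174 probes) and 1893 outlier spots were left out, and log2 signals were centered on the 75th percentile of the array. Probes whose flag for a signal well above background was set for 2 or more of the 3 arrays in any group (34776, 84.5%) were fitted over the 5 groups with limma 3.58.1 in R 4.3.3. A probe was called if its p lay below 0.001 and its change reached 2-fold, and adjusted p is Benjamini-Hochberg. With 3 arrays a group, 10 residual and 2.06 prior degrees of freedom set the precision.

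Members, gene lists, and alternatives were chosen with earlier results of these data known. Each member was described by its brightest probe. From a list, up to 6 genes were named by the largest change among those called in a 24-hr comparison with saline or in both at 2 hr, and the likeness rule took the 5 most correlated genes. Of the 18 member probes, 16 had accessions in RefSeq, and A_52_P279391 of *Clock* and A_52_P130961 of *Nr1d1* had none. Alternatives covered background correction, scaling, filters, moderation, cutoffs, slide, scanner, replicate number, other probes, and single arrays. A result of the list of partners and loop factors is not reported here. Scripts were tested on simulated data.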

Additional observations from a re-analysis of the deposited data

Results flagged for a closer look

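The signed difference, E3 minus E2, changed between 2 hr and 24 hr, past the call, on 4 probes of 3 clock genes, where 15.5% of all probes did. On the described *Cry2* probe (A_52_P248378) it was 1.38 higher at 24 hr on the log2 scale, and on the second *Cry2* probe (A_51_P135542) 1.21 higher (adjusted p = 0.00222). On the described *Per2* probe (A_51_P282760) it was 1.19 higher, but on the second *Per2* probe (A_52_P536869) 0.29 higher (adjusted p = 0.486) and not called. The *Clock* probe A_52_P279391, which is not the one described and had no match in RefSeq, had the largest change, 1.44 (adjusted p = 2.4e-05), against 0.41 on the described *Clock* probe. Strain, scanner, and slide differ with E2 at 2 hr in each of these values and cannot be told apart from the treatment. Groups of 3 arrays were too small for a check of single outlying arrays.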

How the results depend on the processing

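Of 2430 recomputed member values, 2300 kept direction and call, 68 gained a call, 30 lost one, and 32 changed sign, among them 1 called value (*Per2* after 24 hr of E2 on its second probe). With normexp correction, 1 gene kept the call in the time comparison of E3 minus E2, and 12 of 40 steps in the level orders passed. At an adjusted p below 0.05 with no minimum change, 9 (E2, 24 hr), 3 (E3, 24 hr), 9 (E3 against E2, 24 hr), 8 (E2, 2 hr), 8 (E3, 2 hr), 6 (E3 against E2, 2 hr), and 6 (time comparison) genes were called. At p below 0.001 alone the counts were 8, 1, 3, 8, and 4 for all of these but E3 at 2 hr and the time comparison. The shares of all probes at that limit alone, and under the settings that follow, were not counted. In the time comparison 1 gene was called with its own groups alone, and 1 with the second probe. The second probe gave 1 gene for E2 at 24 hr and 3 for E3 at 2 hr. Slide as a fixed block, which equals the values within slide 4, leaves 1 saline array for E3 at 2 hr, so no count is given for it. Without both pancreas-rich arrays, an alternative added after seeing the data, 1 gene was called for E3 against E2 at 24 hr and 1 in the time comparison.

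Replicate numbers did not pair the arrays (10 of 30 same-number pairs correlated above 0.1, median r 0.03, and 6 of 15 arrays were closest to their own number). The replicate block gave 1 gene in the time comparison and moved no other count of calls by over 1.5 times.

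Signs changed for *Per3* (0.41) and *Cry1* (0.10) in E3 at 24 hr with normexp, for *Per3* (0.0416) and *Dbp* (-0.10) there with quantile normalization, for *Clock* in E3 against E2 at 24 hr with quantile normalization (0.0147) and the percentile over detected probes (0.0189), and for *Arntl* in E2 at 2 hr without scaling (0.0863). The second *Per2* probe gave 0.12 (E2, 24 hr), 0.0499 (E3, 24 hr), and -0.0697 (E3 against E2, 24 hr). The *Clock* probes A_52_P279391 and A_52_P161365 gave 0.61 and 0.54 for E3 against E2 at 24 hr and -0.39 and -0.26 for E3 at 2 hr. The *Nr1d1* probe A_52_P130961 gave -0.15 and -0.13 for E3 against E2 at 24 and 2 hr and -0.0228 in the time comparison. The causes were not tested.

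Leaving out single arrays gave 2 to 4 called genes for E2 at 24 hr, 0 to 1 for E3 against E2 at 24 hr, 1 to 3 in the time comparison, and 18 to 25 passing steps. Ranges that held 0 were those of *Per3* in E3 at 24 hr (-0.18 to 0.0853) and in E3 against E2 at 2 hr (-0.20 to 0.0326), *Clock* in E3 against E2 at 24 hr (-0.0775 to 0.0438), *Per1* (-0.0304 to 0.44) and *Arntl* (-0.10 to 0.11) in E2 at 2 hr, and *Per1* (-0.0604 to 0.41) and *Dbp* (-0.22 to 0.0561) in the time comparison.

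With 3 arrays a group and 1 vehicle group at 24 hr, hour of collection and treatment cannot be told apart at 2 hr. Whether the 24-hr groups shared an hour of the day is not given.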
